A study of Rattus norvegicus with 6 samples.

Results

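The miRNA repertoire of rat tendon-derived stem cells (rTDSCs) cultured without loading was described from 3 arrays, each hybridised with RNA of one unloaded sample collected at day 7. They were the 3 of the 6 arrays of the series whose titles name the untreated control, and all 677 miRNAs of the array were followed on them. rTDSCs are the colony-forming cells that remain attached after the cells of the patellar tendon of male Sprague Dawley rats are plated at low density. The colonies were pooled at the first harvest, cells of passage 3 were seeded on flexible silicone plates coated with collagen type I, and after 24 h of attachment the unloaded wells were kept static. No transgene, allele or drug was named for these cells. The remaining arrays of the series come from cyclically stretched cells and were not compared here. The labels do not say whether the 3 samples came from separate cultures or animals, so the spread between them may be technical, and the number of arrays limits the precision of each value.

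A miRNA is a short RNA that directs the silencing machinery to messenger RNAs by pairing, mainly through the seed, its bases 2 to 8. miRNAs with the same seed form a family and can bind overlapping sets of messages. Cells of mesenchymal origin, such as fibroblasts and the stromal cells of tendon, are known for abundant miR-21, miR-199a, miR-214, let-7 and miR-29. The last of these binds many collagen messages.

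The sequences of the highest miRNAs are shown first, because the report turns on how few of them, and how few seeds, carried the signal. They were read from RefSeq (build GRCr8), with the seed in capitals. Of the 136 miRNAs detected on all 3 arrays, 99 were matched to a mature sequence, including the 20 highest. For 73 of these 99 the array name gives no arm, and the arm was taken from general knowledge.
miR-21: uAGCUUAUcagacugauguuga
miR-199a-3p: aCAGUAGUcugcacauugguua
let-7b: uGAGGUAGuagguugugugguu
let-7c: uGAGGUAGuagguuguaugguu
miR-214: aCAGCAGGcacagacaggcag
miR-22: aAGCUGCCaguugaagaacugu
let-7a: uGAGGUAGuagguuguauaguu
miR-29a: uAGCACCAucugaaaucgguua
miR-125b-5p: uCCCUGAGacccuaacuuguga
let-7f: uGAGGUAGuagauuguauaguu

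On GRCr8, mature miR-21 lies at chr10:71902653-71902674 on the minus strand. Mature miR-199a-3p, at chr13:77116294-77116315, and miR-214, at chr13:77121713-77121733, lie close together on the plus strand of one chromosome. let-7a, let-7c and let-7f each have 2 places in the RefSeq table that give the same mature sequence, so their signal cannot be assigned to 1 gene.

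An array carried 13540 spots for miRNAs, 20 for each, spread over 1 to 4 probes, and 434 negative-control spots. The level of a miRNA was the sum over its probes of the mean background-subtracted intensity of the spots, and its share was that sum as a percent of the sum over all miRNAs of the array, with sums below 0 counted as 0. The total was 89046, 99303 and 110872 units on replicates 1, 2 and 3, and 0 spots were saturated. The negative-control spots had a mean of 2.84 to 4.09 units with an SD of 1.95 to 2.28. The probes of different miRNAs need not respond alike to the same number of molecules, so the ranking is one of hybridisation signal and not of molecules per cell.

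miR-21, a miRNA known for high levels in growing fibroblasts, gave the highest signal of unloaded rTDSCs on every array. Its signal was 16541, 21257 and 22126 units on replicates 1, 2 and 3, which was 18.6%, 21.4% and 19.96% of the total (mean 19.98% ± 1.42 SD, n = 3). Set against miR-199a-3p, the next miRNA by mean share, it was higher by 2.56, 2.94 and 2.69 times on the 3 arrays, and the values of these miRNAs did not overlap. No other miRNA passed 10000 units.

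Behind it came miR-199a-3p with 6457, 7222 and 8234 units (7.32% ± 0.0957 of the total, SD, n = 3). This is 1 arm of a precursor that is transcribed in mesenchymal cells together with that of miR-214. let-7b, of the family that accumulates as cells differentiate, gave 6958, 6740 and 7386 units (7.09% ± 0.632). The order of these 2 was not settled, as miR-199a-3p was above let-7b on replicates 2 and 3 and below it on replicate 1. let-7c followed with 6267, 6174 and 7183 units (6.58% ± 0.420), below let-7b on every array. miR-214 gave 5554, 5276 and 6010 units (5.66% ± 0.505).

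From miR-214 down to the tenth place each miRNA was above the next on all 3 arrays. miR-22, a miRNA expressed in many mesenchymal tissues, held 4.37% ± 0.178 of the signal and let-7a 4.04% ± 0.125. miR-29a, with 3147, 3449 and 4145 units, held 3.58% ± 0.139. Its relative miR-29b, with 1193, 1682 and 1832 units, held 1.56% ± 0.194. miR-125b-5p, a miRNA found in many stem and stromal cells, held 3.19% ± 0.207, and let-7f 2.95% ± 0.181 (all SD, n = 3).

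Below the tenth place the neighbours were closer. let-7i held 2.82% ± 0.200, miR-16 2.60% ± 0.120, miR-23a 2.23% ± 0.301, miR-24 2.17% ± 0.173 and miR-34a, whose gene is activated by p53, 1.82% ± 0.172. let-7f was above let-7i, let-7i above miR-16 and miR-23a above miR-24 on 2 of the 3 arrays each. These steps did not exceed the spread between arrays. In miR-34a, miR-23b, let-7d, miR-27a and miR-29b, ranks 15 to 19, no step held on all 3 arrays, and let-7d was above miR-27a on 1 of 3. With replicate 1 left out, miR-23b replaced miR-34a among the 15 highest, and the other 14 were the same.

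**Figure D1:**
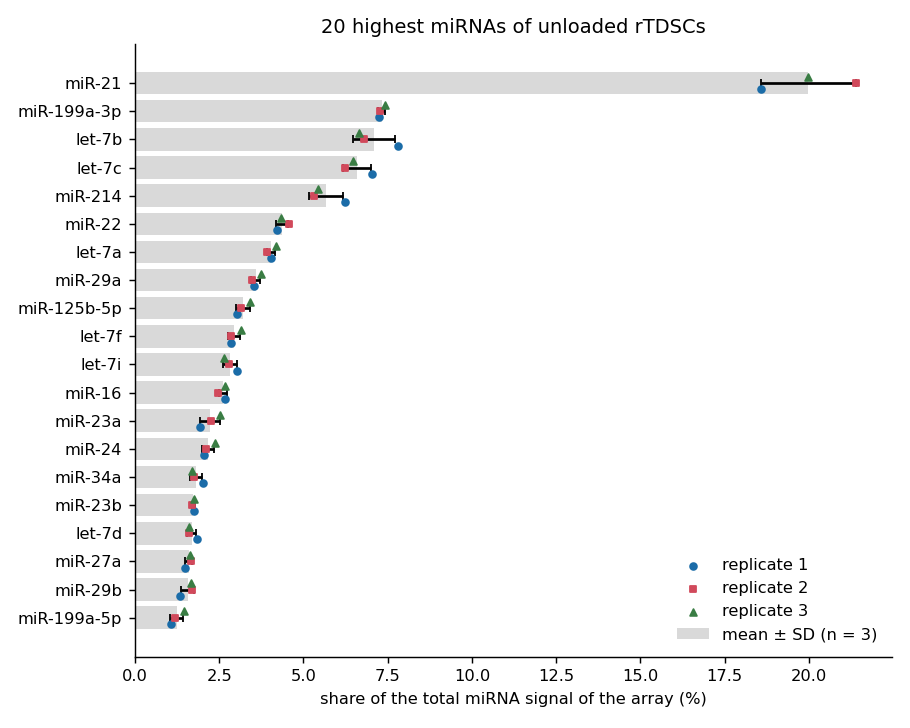
Share of the total miRNA signal of each unloaded array (percent, horizontal axis) for the 20 miRNAs with the highest mean share; bars are means over 3 arrays with SD, and symbols are the arrays. The symbols of miR-21 lie between 18.6% and 21.4%, apart from all others, and those of many neighbours overlap.

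The signal was concentrated in few miRNAs, and to the same degree on each array. The 10 highest held 64.8%, 64.9% and 64.7% of the signal (64.8% ± 0.111, SD, n = 3). The 20 highest held 84.2% ± 0.485 and the 50 highest 95.0% ± 0.431. On each array 6 miRNAs together reached 50% of the signal. To reach 90% took 29, 29 and 27 miRNAs, and to reach 99% took 127, 128 and 111. Expressed as the number of equally bright miRNAs with the same entropy, the repertoire was worth 30.01, 28.8 and 28.6 miRNAs (29.1 ± 0.778, SD, n = 3). This concentration depends on how background is removed. With normexp, a model-based correction, and its added offset of 50 units per probe, the 10 highest held 33.3% of the signal, and with the offset taken off again 56.6%. To reach 90% of the signal then took 505 and 154 miRNAs.

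**Figure D2:**
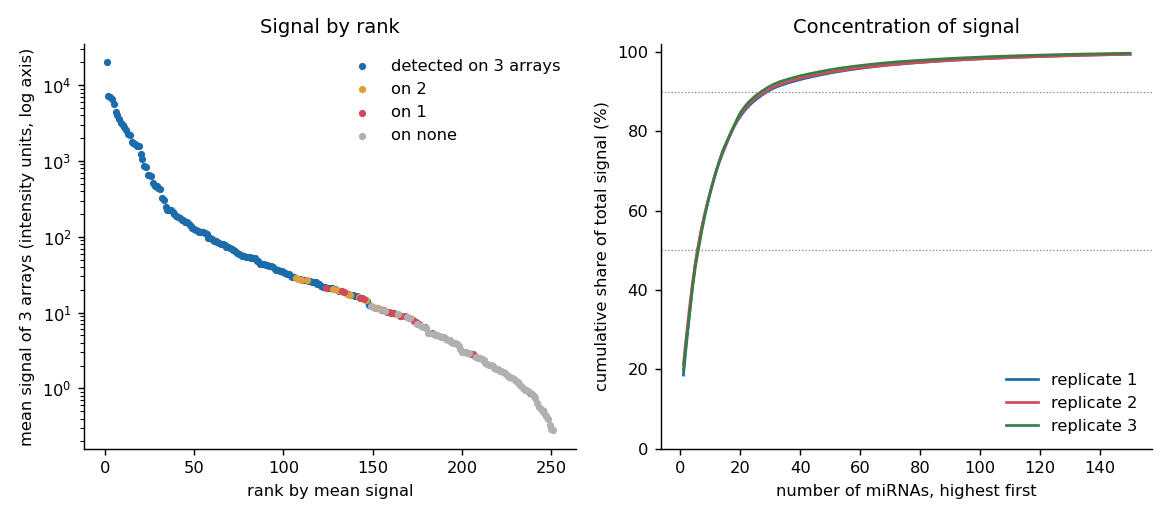
Left, mean signal of 3 unloaded arrays (intensity units, log axis) against rank for the miRNAs with a mean above 0, coloured by the number of arrays on which the miRNA was called detected; right, cumulative share of the total signal (percent) of each array against the number of miRNAs, with dotted lines at 50% and 90%. The 3 curves nearly coincide and cross 50% at 6 miRNAs.

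The scanner software called 153, 176 and 140 miRNAs detected on replicates 1, 2 and 3 (156 ± 18.2, SD, n = 3). On all 3 arrays 136 of 677 were detected, or 20.1%, and on at least 1 array 178, or 26.3%. The other 499 (73.7%) were called on no array, which says that they were not detectable above background and not that they are absent. The 136 held 99.2% ± 0.199 of the signal, and the 499 held 0.312%. Of the miRNAs called on some arrays, 21 were called on replicate 2 alone, 16 on replicates 1 and 2, and 3 on replicates 2 and 3, with 1 each on replicate 1 or replicate 3 alone. The calls that differed thus lay mostly on replicate 2. Replicate 3, with the lowest count, had the lowest median spot signal, -2.38 units against -0.28 and -0.18 on replicates 1 and 2, and the part of this shift in the calls was not tested.

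The border of detection was not sharp in signal. The median mean signal was 74.2 units for miRNAs detected on 3 arrays, 16.001 on 2, 8.51 on 1 and -5.09 on none, but the ranges overlapped. The highest miRNA called on no array had a mean of 12.3 units, and the dimmest called on all 3 had 5.33. That was miR-674-3p, with 6.86, 10.5 and -1.33 units, and next came miR-17-5p, of a cluster known to drive proliferation, with 9.10, 10.8 and 7.21 units. miR-455, which is known from cartilage, gave 8.49, 9.56 and 11.4 units. The signal range from the highest miRNA to the dimmest one called on all arrays therefore covered more than 3 decades. Counting a miRNA only where a probe had at least 50% of its spots well above background left 116 on all 3 arrays.

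Grouped by seed, the 99 detected miRNAs with a sequence fell into 65 seeds, and the 5 highest seeds held 64.6% of the signal. The let-7 seed GAGGUAG came first, ahead of the single miRNA with the highest signal. It was shared by 8 detected miRNAs, let-7a, b, c, d, e, f and i and miR-98, which held 27.8%, 25.4% and 25.9% of the signal on replicates 1, 2 and 3 (26.4% ± 1.29, SD, n = 3). Each was detected on all 3 arrays, from let-7b down to miR-98 with 115, 126 and 143 units. The 8 sequences are near copies. let-7b and let-7c, shown above, differed at 1 of 22 positions, as did let-7a and each of let-7c, let-7e and let-7f, while let-7d and let-7i differed at 6. A probe for one may bind another, which was not tested, so the split of the signal within the family is uncertain.

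**Figure D3:**
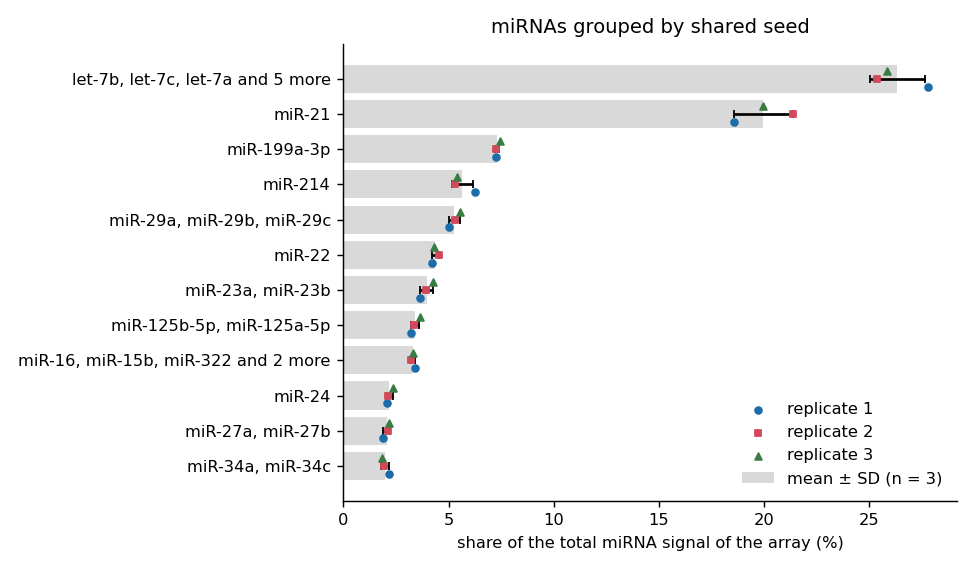
Share of the total miRNA signal (percent) of the 12 seeds with the highest share among miRNAs detected on all 3 unloaded arrays, each named by its members; bars are means over 3 arrays with SD, and symbols are the arrays. The 8 miRNAs of the let-7 seed together hold 26.4% and miR-21 alone 19.98%.

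The miR-29 family, which targets collagens and other matrix messages, shares the seed AGCACCA. Its 3 members are shown because they carry the same seed at unlike levels.
miR-29a: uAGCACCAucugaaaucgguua
miR-29b: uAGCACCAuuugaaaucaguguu
miR-29c: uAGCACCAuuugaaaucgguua
Together they held 5.28% ± 0.267 of the signal, and all 3 were detected on every array. miR-29c gave 111, 131 and 155 units and lay below the other members on each array. The ratio of miR-29a to miR-29b was 2.64, 2.05 and 2.26. The sequences are close, so a probe for one member may bind another, which was not tested.

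miR-199a-3p, miR-199a-5p and miR-214, which are made from neighbouring precursors, held 14.2% ± 0.395 of the signal. The arms of miR-199a were unequal, the 3p arm giving 6.85, 6.12 and 5.11 times the signal of the 5p arm. Set against miR-214, miR-199a-3p was higher by 1.16, 1.37 and 1.37 times.

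miR-23, miR-27 and miR-24 come from a pair of similar clusters and share targets in growth and matrix pathways. Their 5 members were all detected on all 3 arrays and held 8.18% ± 0.609. miR-23a, miR-24, miR-23b and miR-27a each gave more than 1000 units, whereas miR-27b gave 349, 445 and 591 units. miR-23a and miR-23b are near copies, as are miR-27a and miR-27b, so the split within each pair is uncertain as for let-7.

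miR-143 and miR-145, which are made from 1 transcript in smooth muscle and fibroblasts, were far apart in signal. miR-143 gave 638, 803 and 1082 units, and miR-145 gave 8.39, 8.46 and 10.6 units, at the border of detection, and was called on 1 array, so no ratio is given. miR-221 and miR-222 are another pair from neighbouring genes. miR-221 gave 286, 321 and 365 units and miR-222 35.4, 43.2 and 47.4, a ratio of 7.74 ± 0.314 (SD, n = 3). Other neighbours were closer, such as miR-23a and miR-27a with a ratio of 1.40 ± 0.138. These pairs were picked after their values were seen, and each ratio compares different probes and includes the difference between them.

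The counts of detected members below stand against 20.1% of all names on the array. That share includes 240 names with a star, given to the less abundant arm of a precursor, of which 12 were detected. The families hold no such names, so the 20.1% is too low a measure for them. Among the other families, miR-15, miR-16 and their relatives, which restrain the cell cycle, had 5 of 6 members detected on all 3 arrays and 3.31% ± 0.103 of the signal, most of it miR-16. The miR-99, miR-100 and miR-125 families had 6 of 7 and 4.29% ± 0.154. The miR-34 family had 3 of 4 and 2.13% ± 0.185, in which miR-34a exceeded miR-34c by 11.5 ± 0.807 times. The miR-17-92 cluster and its paralogs, known from proliferating cells, had 8 of 13 detected but 0.590% ± 0.0515 of the signal. Its highest members were miR-106b with 107.4, 121 and 114 units, miR-19b with 87.3, 122 and 126, and miR-20a with 99.5, 120 and 112. The many detected members of these clusters thus lay 2 decades or more below miR-21.

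The remaining families held smaller shares, and their counts likewise stand against 20.1% of all names, those with a star included. miR-130a, with 781, 899 and 931 units, led the miR-130, miR-301, miR-148 and miR-152 group, of which 4 of 7 were detected and which held 1.13% ± 0.0344. miR-26a and miR-26b held 0.863% ± 0.0739, and miR-103 and miR-107, which differ little in sequence, 0.751% ± 0.0257. The Hox cluster miRNAs miR-10 and miR-196 had 4 of 6 detected and 0.690% ± 0.0524, led by miR-196a with 418, 434 and 434 units. miR-221 and miR-222 held 0.367% ± 0.00585, the miR-30 family 0.243% ± 0.0117 with 5 of 6 detected, and the miR-181 family 0.190% ± 0.00682 with 2 of 4.

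Of the 14 miRNAs on the list of those linked to cartilage and bone formation, 4 were detected on all 3 arrays (28.6%, against 20.1% of all names), 2 on some and 8 on none. The list holds no names with a star, of which 12 of 240 were detected, so the 20.1% is too low a measure for it. No excess is therefore read from the 28.6%. Together they held 0.304% ± 0.0220 of the signal. The highest was miR-140, a cartilage miRNA, with 162, 213.8 and 219 units, followed by miR-218 with 40.3, 51.5 and 52.2. The study centres on miR-337-3p. The array name miR-337 gives no arm and was not matched to a sequence, so that it is this arm is assumed. miR-337 gave 14.9, 15.7 and 21.0 units, or 0.0172% of the signal, and was called on all 3 arrays. It lay near the border of detection, at rank 139. miR-135a gave 3.43, 4.26 and -3.70 units and was called on none. miR-210, which responds to low oxygen and has been linked to tendon healing, gave 181, 205 and 176 units at rank 40.

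miR-337 lies in a large imprinted domain, and the genes grouped with it on the same strand, with gaps of up to 10 kb, account for 17 array names. The group is incomplete and does not stand for the domain. It lacks miR-665, which lies within 10 kb of miR-431 on the same strand and was called on none. Further along that strand, the run from miR-379 to miR-410 has 54 array names. Of those, 9 were detected on all 3 arrays, and the run held 0.374% of the signal. The run of miR-341, miR-1188 and miR-370 has 5 names, with 0 detected on all 3 arrays. Of the 17 names grouped with miR-337, 4 were detected on all 3 arrays, with a combined share of 0.187% ± 0.0101. Within these 17 names the values were as follows. miR-127 was the highest with 61.7, 73.3 and 99.3 units, then miR-434 with 46.1, 53.3 and 79.8. miR-431 gave 14.7, 17.1 and 14.4 units, close to miR-337. The detected share of the 17 names, 23.5%, was near that of all miRNAs on the array, 20.1%.

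The label of the cells was set against markers of mesenchymal and other lineages, with 20.1% of all names on the array detected on all 3 arrays. The lists hold no names with a star, of which 12 of 240 were detected, so the 20.1% is too low a measure for them. Of the 8 mesenchymal names, 7 were detected on all 3 arrays, miR-145 on 1, and together they held 38.3%, 40.8% and 39.8% of the signal. The list was chosen with earlier results of these data known. It holds miR-21, miR-199a-3p, miR-214 and miR-22, at ranks 1, 2, 5 and 6, so its share largely restates the ranking. Of the 8 names of muscle miRNAs 0 were detected on any array, miR-1 reading -6.96, -4.19 and -14.2 units. Outside the list, miR-1* gave 18.5, 24.6 and 14.3 units and was called on 1 array, while miR-133a*, miR-133b*, miR-206* and miR-208* were called on none. The 10 names of epithelial miRNAs, the miR-200 family among them, were also detected on no array, and 9 of them were at or below 0 on every array. The liver miRNA miR-122 and the red cell miRNAs miR-451 and miR-144 were not detected on any array. The names on these lists, all without a star, were thus at background.

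Single names of other lineages were called detected, in shares of 1 of 5 blood, 1 of 7 neuronal and 1 of 9 pluripotent names, against 20.1% of all names. That share includes the names with a star, which the lists leave out. The endothelial miRNA miR-126 was called on all 3 arrays at 13.5, 13.97 and 10.05 units. Among 5 names of blood cell miRNAs, miR-146a, which is also induced by inflammatory signals in other cells, gave 29.1, 45.2 and 33.5 units, and miR-223 gave 18.1, 24.6 and 16.2 units with a call on 2 arrays. miR-142-3p, miR-142-5p and miR-150 were called on none. Of 7 neuronal names, miR-128 gave 62.5, 63.6 and 69.6 units and miR-129 was called on 2 arrays, while miR-124, miR-9, miR-137, miR-153 and miR-7b were not. Of 9 names from pluripotent cells miR-290 alone was called on all 3 arrays, at 42.3, 39.3 and 37.2 units. The other 8, from the miR-291 to miR-295 genes beside it, were called on none. Of 2 endocrine names, miR-7a gave 10.6, 12.2 and 1.81 units with a call on 2 arrays, and miR-375 was called on none. Some listed markers were not on the array and could not be read. These were miR-155 (blood), miR-486 (red cells), and miR-302a to miR-302d and miR-367 (pluripotent cells). Of the names with a star, miR-150*, miR-129-1* and miR-129-2* were called on all 3 arrays, and miR-126*, miR-124*, miR-137* and miR-153* on none. The source of these signals was not tested.

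**Figure D4:**
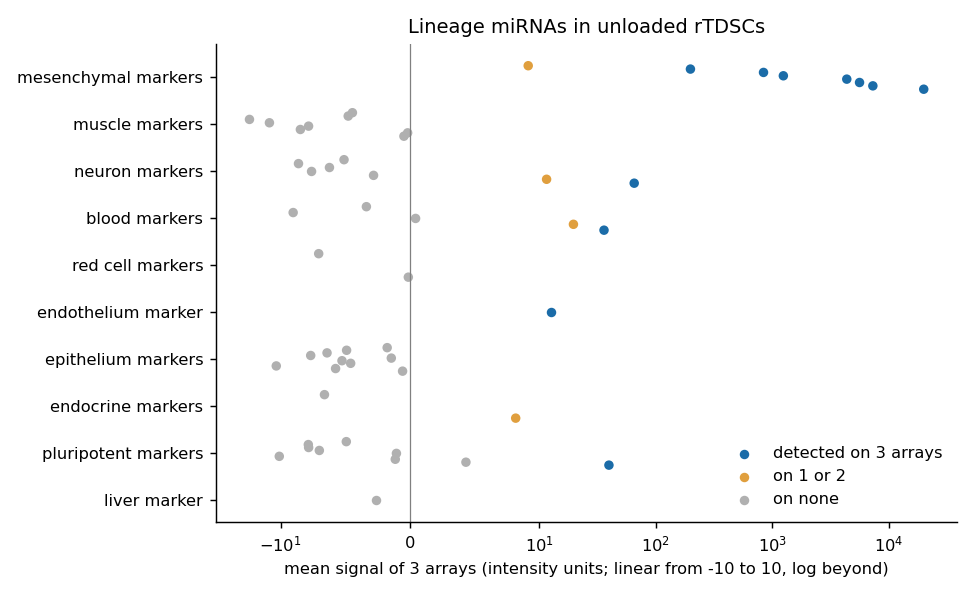
Mean signal of 3 unloaded arrays (intensity units, linear between -10 and 10 and log beyond) for the miRNAs of each lineage list, each point a miRNA, coloured by the number of arrays on which it was called detected. 7 of the 8 mesenchymal names are detected on 3 arrays and 0 of the muscle and epithelial names on any. The lists hold no names with a star.

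Names with a star, which the array gives to the less abundant arm of a precursor, made up 240 of the 677. Of these, 12 were detected on all 3 arrays, or 5.00%, against 20.1% of all names, and they held 0.754% ± 0.153 of the signal. Since the star was assigned for low abundance, the lower share restates the naming. miR-202* was the highest with 201, 90.8 and 80.8 units, followed by miR-140* with 69.0, 87.9 and 96.2. Where both arms were detected, the stronger arm exceeded the other by 13.8 ± 1.55 times for miR-31 and by 2.35 ± 0.0789 times for miR-140. For miR-455 the arm with the star gave 24.10, 27.01 and 30.02 units and the other arm, at the border of detection, 8.49, 9.56 and 11.4. For miR-345 the order of the arms was not fixed, as the ratio of 3p to 5p was 2.29, 1.17 and 0.740.

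To compare the arrays with each other, signals were expressed relative to the 75th percentile that the array showed among 181 probes with signal on every unloaded array, and the log2 of each miRNA's signal was taken. The SD between arrays could be formed for 135 of the 136 detected miRNAs, since miR-674-3p was below 0 on replicate 3. Its median was 0.15, which is a factor of 1.11, with quartiles of 0.10 and 0.23. With replicate 3 left out the median was 0.10 (0.0981), and with replicate 1 or replicate 2 left out 0.12 and 0.16. These are SDs of 2 arrays over the miRNAs detected on both. The median of such an SD is lower than that of an SD of 3 arrays, so they compare with each other and not with 0.15. When the percentile was taken over all probes instead, most of which were at background, the median SD was 0.40 (0.395). After scaling over the detected probes, replicate 3 was the lowest of the 3 for 95 of the 135 miRNAs.

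The spread was smaller for high signals. The median SD was 0.11 for the 20 miRNAs between 1000 and 10000 units, 0.14 for the 36 between 100 and 1000, and 0.19 for the 75 between 10 and 100. The miRNAs with the least spread were miR-455, with an SD of 0.01 at the border of detection, miR-29a with 0.02 and let-7f with 0.02. In all, 34 of the 135 had an SD below 0.1. Within an array, the median CV of the spots of a probe was 10.0%, 6.98% and 7.37% on replicates 1, 2 and 3. For the mean over a probe's spots this gives a median CV of 3.33%, 2.22% and 2.37%. The median CV of that mean between arrays was larger, 9.50%.

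At the other end, 7 miRNAs had an SD above 0.5. The 3 with the greatest spread were miR-345-3p with 119, 62.5 and 41.3 units (SD 0.98), miR-150* with 83.0, 45.0 and 28.8 units (SD 0.98) and miR-139-3p with 132, 58.2 and 51.3 units (SD 0.93). miR-202*, miR-212, miR-125a-3p and miR-320 followed, with SDs of 0.90 to 0.53. All 7 were highest on replicate 1 and lowest on replicate 3. Over all 135 miRNAs, replicate 1 was the highest for 56 and replicate 3 the lowest for 95. The sequences of those that were matched to RefSeq are shown because they are rich in G and C.
miR-345-3p: cCCUGAACuaggggucuggaga
miR-139-3p: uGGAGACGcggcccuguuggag
miR-125a-3p: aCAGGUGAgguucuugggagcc
miR-212: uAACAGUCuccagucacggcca
Their GC content was 54.5% to 68.2%, and the median of the 99 matched miRNAs was 47.6%. Across these 99 miRNAs, measured on the same 3 arrays, the Spearman correlation of GC content with the deviation of an array from the mean of the 3 was 0.35 on replicate 1, -0.27 on replicate 2 and -0.21 on replicate 3. The part of base composition in the spread was not tested.

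**Figure D5:**
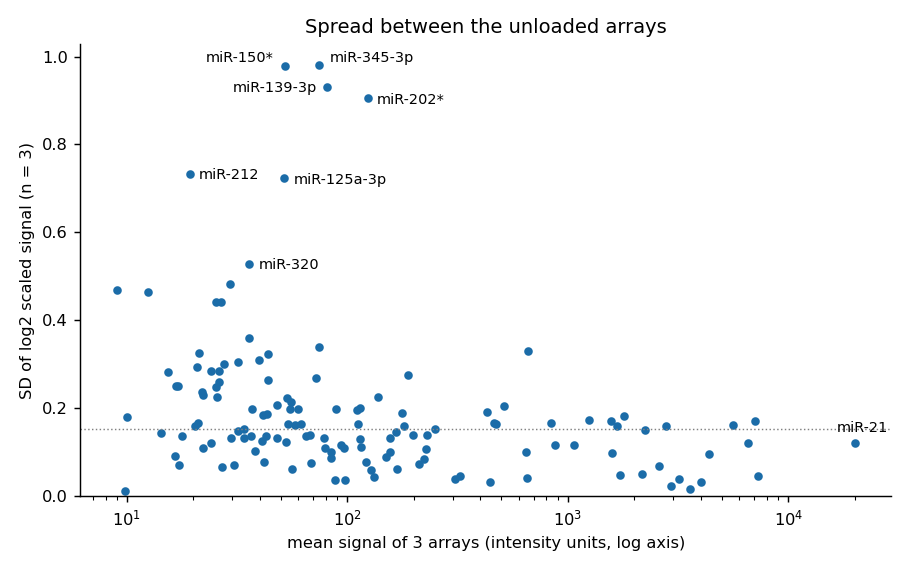
SD of the log2 scaled signal over the 3 unloaded arrays (vertical axis) against mean signal (intensity units, log axis) for 135 miRNAs detected on all 3; the dotted line is the median SD, 0.15. The 7 labelled miRNAs above an SD of 0.5 all have mean signals between 10 and 1000 units, and miR-21, at the far right, has an SD of 0.12.

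Across the 135 miRNAs, Pearson's correlation of the log2 signals was 0.993 between replicates 1 and 2, 0.986 between 1 and 3 and 0.996 between 2 and 3. These values describe miRNAs on shared probes and are not a test. Between the same pairs 131, 128 and 135 of the 135 lay within a factor of 2 after scaling. The 10 highest miRNAs were shared to 9, 9 and 10, and the 50 highest to 47, 48 and 49.

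Features that the ranking did not use were compared between the miRNAs with high and low signal as a description. Among the miRNAs whose array name itself gave the RefSeq match, the first base was U in 13 of 26 detected on all 3 arrays (50.0%) and in 42 of 131 never detected (32.1%). The median GC content was 50.0% and 47.8%. All 99 matched miRNAs detected on 3 arrays, most of them with an arm from general knowledge, are another set. In it 57 began with U (57.6%), and the median GC content was 47.6%. Among its 20 highest, 13 began with U, and their median GC content was 45.5%. No arm was looked up in this way for miRNAs never detected, so these values do not compare with the 42 of 131. Genes were also grouped where they lay within 10 kb of one another on the same strand. Grouped names were detected on all 3 arrays in 59 of 305 cases (19.3%), and other matched names in 53 of 256 (20.7%), against 20.1% of the whole array. The grouping missed neighbours such as miR-199a and miR-214, let-7b and let-7c, and miR-15b and miR-16. These shares therefore do not compare clustered with single genes. One miRNA among the 25 highest stood out in composition and was picked after its values were seen. miR-1224, at rank 24, was 66.7% GC and 61.9% G, and gave 738, 596 and 639 units, with a spread of 0.33 that was the widest among the 25.
miR-1224: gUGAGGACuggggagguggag
The probes of a miRNA also contributed unequally. The brightest probe carried a median of 78.2% of a detected miRNA's signal, and more than 90% for 30 of 135.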

How the data were processed

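Total RNA of 3 unloaded rTDSC samples was labelled with Cy3 and hybridised in 1 colour to Agilent rat miRNA arrays. The authors deposited the output of Agilent Feature Extraction 10.7.3.1, in which each spot has an intensity after background subtraction, not scaled between arrays, together with flags of outliers, saturation and detection per the file headers. The series matrix, also deposited, did not differ from them (largest difference 0).

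Without control spots and spots flagged as outliers (2.93% to 4.17% of an array), the mean of each probe was formed and these means were added up for a miRNA (Python 3.11.15, numpy 2.4.6, pandas 2.3.3). Shares were taken without scaling. For the spread, arrays were divided by their 75th percentile over 181 detected probes, a probe counting as detected with at least 50% of its spots well above background, and log2 was taken. Detection of a miRNA was the call of the scanner software. Normexp was run with limma 3.58.1 in R 4.3.3 on the median signal and background, where a background value more than 3 MADs away from the median background of its array was set to that median. With 1 group of 3 arrays no test was made, and values are per array or mean ± SD. On simulated data only the shares and the number of miRNAs needed to reach a share were tested. Detection, scaling, spread, correlations, normexp and the grouping by seed or gene were not tested in this way.

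The miRNAs named are the 15 highest, the 3 dimmest, the 3 with the highest and the 3 with the lowest spread, the highest members of each list and 5 miRNAs the paper names; those named beyond this rule were chosen after their values were seen. The members and lists were chosen with earlier results of these data known. Array names were matched to RefSeq, 173 by name and 73 through an arm taken from general knowledge. The array's own annotation is of an older build. Alternatives concerned the probe summary, background, outlier-flagged spots, scaling, detection and each array left out in turn.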

Additional observations from a re-analysis of the deposited data

How the results depend on the processing

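miR-21 was the highest miRNA under each of the 10 alternatives run on the ranking, which shared 14 or 15 of the 15 highest miRNAs with the values reported. Over the main results, 70 values stayed within the spread between arrays (or 1.5 times for counts) and 29 moved. A share with an array left out cannot move by more than this spread, so those shares counted as staying whatever the data. The share of the 10 highest was 64.2% with the scanner software's total gene signal, 66.2% with the brightest probe alone, 65.1% with the total over detected miRNAs, 33.3% with normexp and 56.6% with normexp after the offset of 50 was taken off again, an alternative chosen after seeing the data. With normexp 42 miRNAs made 50% of the signal and 505 made 90%, and with the offset taken off 154 made 90%. By construction normexp added 50 units to each probe, undetected ones included, and all 15 of the highest shares were lower. With outlier-flagged spots kept, let-7 and miR-98 held 24.3%, miR-23, miR-27 and miR-24 7.43%, miR-29 4.82% and miR-199 and miR-214 13.0%. On replicate 3 a single spot of miR-344a read 217007 units, whereas the miRNA was at -3.79 units without it, and it took 15.5% of that array's signal and brought miR-344a into the 15 highest in place of miR-34a. Normexp gave 13.7%, 4.49%, 2.84% and 7.36% for these 4 groups, and 22.9%, 7.30%, 4.63% and 12.4% without the offset. The brightest probe alone put let-7d in place of miR-24 among the 15 highest and gave 7.57% for miR-23, miR-27 and miR-24 and 13.0% for miR-199 and miR-214. The median SD was 0.395 when the 75th percentile was taken over all probes and 0.0981 to 0.163 with an array left out. The latter values rest on fewer arrays per SD, so they do not compare directly with the value over all arrays. The lowest correlation was 0.978 with the total gene signal, 0.994 with normexp and 0.981 over miRNAs detected on at least 1 array. With an array left out it was 0.986 to 0.995. Only 1 pair of arrays then remains, so these values restate the correlation of that pair and are no check on the lowest. Detection on all arrays was 116 to 142 under other rules. The threshold behind the 142 was taken from the miRNAs never called detected, so it is not independent of the call. With an array left out fewer calls are required, so the count cannot fall below 136 whatever the data. Leaving arrays out is therefore no check that the count is not too high. No paired analysis was possible because only 1 group of arrays is described. The signal over background limits the dim miRNAs: on each array, 1% of the miRNAs never called detected lay above 9.11, 8.14 and 13.2 units, so values below about these levels have no reliable order.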
